A study of Mus musculus with 12 samples.

Results

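The genes of megakaryocytes and platelets described here are Vwf, Pf4, Itga2b, Itgb3, Gp1bb, Gp9, Selp, Clu, Treml1 and Ppbp, as measured by RNA-seq of mouse LSKs. They are 10 of the 53465 genes in the gene expression table and were taken by gene name, from a list put together with earlier results of these data known. LSKs are the Lin- Sca-1+ c-Kit+ cells of the bone marrow, the fraction that holds hematopoietic stem cells and early progenitors. The 12 libraries fall into 4 groups of 3, namely untreated Tespa1+/+ LSKs, untreated Tespa1-/- LSKs, and Tespa1+/+ and Tespa1-/- LSKs collected on day 9 after 5-fluorouracil (5-FU). The drug kills cycling blood cells, so that the marrow then regenerates, and was given once at 150 mg/kg by intraperitoneal injection. Per the methods, the mice were male and 8 to 10 weeks old, and the Tespa1-/- line (B6.129S-Tespa1tm1Smoc) had been crossed back to C57BL/6 for over 6 generations. The methods name no promoter or cell type that limits the knockout, and the labels call the wild-type mice littermates. The labels do not say whether the 3 libraries of a group came from different mice, so that p-values measure the spread between these libraries, which may be technical.

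Library totals ranged from 22118154 to 28275079 counts with a median of 23401715, and a floor of 3 counts in a library corresponded to 0.106 to 0.136 CPM (counts scaled to a common library total, with TMM factors). The 10 genes together were a small part of each library, with a summed level of 68.3 to 81.5 CPM in untreated Tespa1+/+ LSKs. Tespa1 was lower in the Tespa1-/- libraries without being absent. Its mean was 46.5 ± 3.41 CPM (SD, n = 3) in Tespa1+/+ against 34.8 ± 0.235 CPM in Tespa1-/- LSKs before treatment, and 53.2 ± 5.37 against 19.3 ± 1.82 CPM after 5-FU. The libraries of the 2 genotypes did not overlap at either time, and the sources used here do not say which exons are deleted. The 10 LSK and stem cell markers summed to 1046 to 1997 CPM over all 12 libraries.

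Megakaryocytes are the large marrow cells that shed platelets. A damaged vessel wall exposes von Willebrand factor (Vwf), which is held by the platelet's glycoprotein Ib-IX complex, and the integrin αIIbβ3 then binds fibrinogen and joins platelets to each other. Their alpha granules carry chemokines and the adhesion molecule P-selectin to the surface. Several of these genes, Vwf, Itga2b (CD41), Selp and Pf4 among them, are also transcribed in part of the stem cell compartment itself, where they mark platelet-biased stem cells.

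GATA1 and ETS family factors such as FLI1 are known regulators of megakaryocyte genes, and for this reason the promoters were searched for some of the letters they bind. Promoter sequence of RefSeq (GRCm38.p6) was matched for 7 of the 10 genes and was not matched for Vwf, Itgb3 and Clu. In the 250 bases before the start site, the ETS letters GGAAGT occurred on either strand in 4 of 7 promoters, those of Pf4, Itga2b, Ppbp and Gp9, and in 19.7% of all 32851 promoters of that table. The GATA letters AGATAA or TGATAA occurred in 0 of 7 on either strand and in 16.6% of all promoters. The letters AGATAG and TGATAG were not searched for, and the Gp1bb promoter holds TGATAG on the opposite strand. The 0 of 7 thus covers only the letters searched and does not show that GATA sites are absent. The last 100 bases before the start are shown for the 3 genes with a match near the start and for Selp, whose level behaved differently from the others below. Each runs 5′ to 3′ on the strand of the gene, and capitals mark the ETS letters, which lie on the opposite strand and so read as their reverse complement.
Pf4, chr5:90772335-90772434, plus strand: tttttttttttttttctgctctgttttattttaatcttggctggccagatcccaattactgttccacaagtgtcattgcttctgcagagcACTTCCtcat
Ppbp, chr5:90768418-90768517, plus strand: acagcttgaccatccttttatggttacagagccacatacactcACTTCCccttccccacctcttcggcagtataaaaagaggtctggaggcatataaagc
Itga2b, chr11:102469884-102469983, minus strand: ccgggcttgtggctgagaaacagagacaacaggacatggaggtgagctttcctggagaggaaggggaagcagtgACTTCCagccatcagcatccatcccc
Selp, chr1:164115164-164115263, plus strand: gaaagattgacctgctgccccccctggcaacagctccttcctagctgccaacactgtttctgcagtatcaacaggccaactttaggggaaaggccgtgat
The first base of the match stood at -10 in Pf4, -26 in Itga2b, -57 in Ppbp and -240 in Gp9, counted from the RefSeq start site. In the deposited table Itga2b begins further upstream, at 102470122 on the minus strand, so that its printed stretch lies within the gene by that annotation. Pf4 and Ppbp are neighbours on chromosome 5, at 90772435 to 90773383 and 90768518 to 90770063, both on the plus strand. These matches describe letters and not factor binding, which was not measured.

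Across the 4 groups, 9 of the 10 genes had their highest mean CPM in Tespa1-/- LSKs after 5-FU, and Selp had its highest mean in Tespa1+/+ LSKs after 5-FU. In Tespa1+/+ LSKs, 5 of the 9 genes tested rose after 5-FU (Vwf, Pf4, Itga2b, Selp and Gp1bb) and none fell, where 3.77% of all 17002 genes tested rose and 4.18% fell. Gp1bb entered that test only through its treated libraries, so that its call is no support and 4 others remain. Of all genes called in this comparison 47.4% rose, and 58.2% when libraries were scaled by their totals without TMM. In Tespa1-/- LSKs all 9 genes tested rose after 5-FU, where 10.7% of 17228 genes rose and 8.64% fell. Clu, with 23, 34 and 7 untreated counts, entered that test only through its treated libraries, so that its call there is no support. Between genotypes in untreated LSKs, 1 of 9 genes was higher in Tespa1-/- LSKs, Itga2b, and none was lower, where 1.64% of 17055 genes were higher and 3.59% lower. After 5-FU, 4 of 10 genes were higher in Tespa1-/- LSKs (Itga2b, Itgb3, Clu and Vwf) and 1 was lower (Selp), where 7.34% of 17239 genes were higher and 5.78% lower. A gene was called at an adjusted p below 0.05 in edgeR's quasi-likelihood test, with adjustment over all genes of the comparison. The test passes over genes with too few counts, which left Ppbp out of 3 of the 4 comparisons. In this bulk RNA, more cells of a type and more RNA per cell cannot be told apart.

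**Figure D1:**
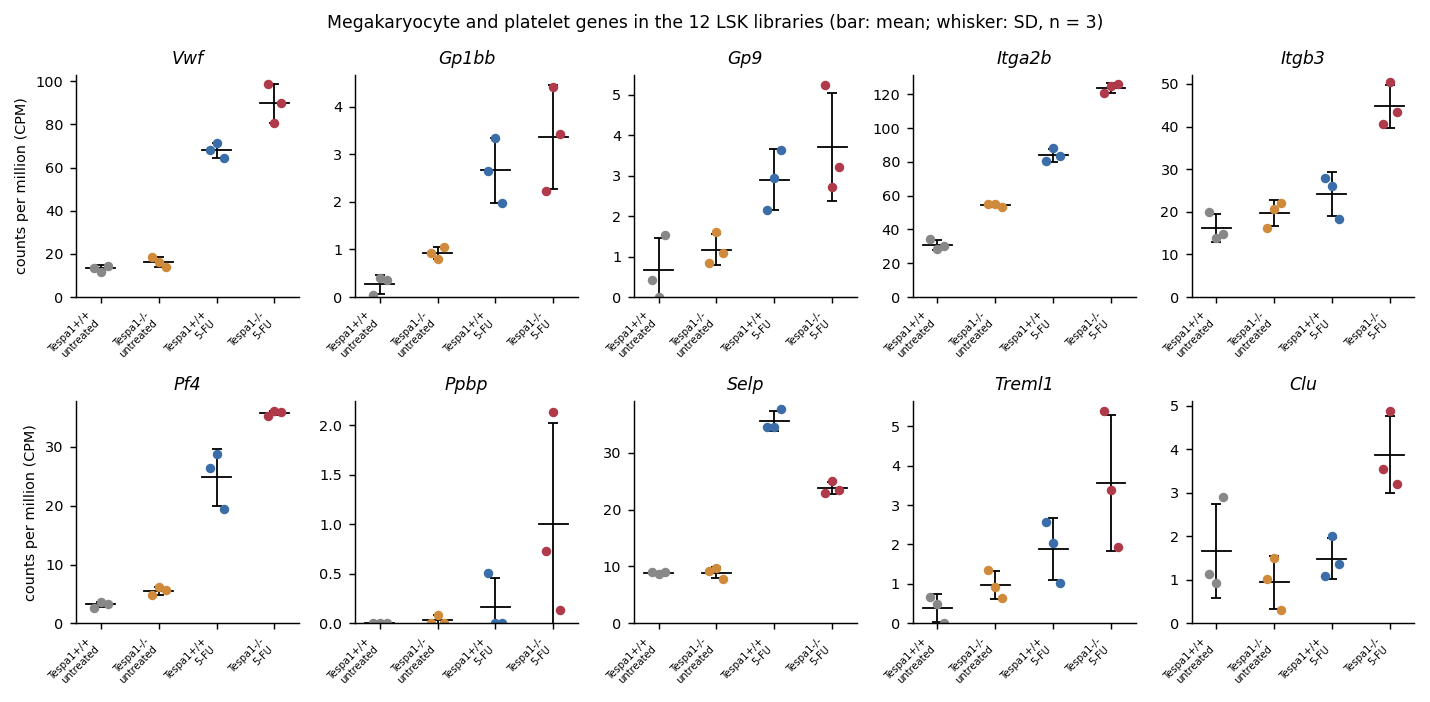
Level of each gene in CPM (vertical axis, linear, a scale of its own per gene) in the 12 libraries, 1 point per library, with the mean and SD of each group of 3. In 9 panels the highest mean is that of Tespa1-/- LSKs after 5-FU, and in the Selp panel the 3 Tespa1+/+ libraries after 5-FU stand above all others.

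Vwf, the adhesive protein stored in platelets and endothelium, showed the 5-FU difference in both genotypes. Its level was 13.6, 11.8 and 14.4 CPM in the 3 untreated Tespa1+/+ libraries and 18.5, 16.1 and 13.8 CPM in the untreated Tespa1-/- libraries. After 5-FU it was 68.1, 71.2 and 64.4 CPM in Tespa1+/+ and 98.6, 80.7 and 90.0 CPM in Tespa1-/- LSKs. All treated libraries thus stood well above all untreated ones, and the treated genotypes did not overlap. The rise with 5-FU was 2.36 ± 0.12 (log2 fold change ± SE, adjusted p = 1.2e-05) in Tespa1+/+ and 2.46 ± 0.12 (adjusted p = 4.2e-06) in Tespa1-/- LSKs, which is 5.12-fold and 5.5-fold. Between genotypes it was 0.29 ± 0.16 (adjusted p = 0.396) in untreated LSKs, with overlapping libraries, and 0.40 ± 0.09 (adjusted p = 0.0194), or 1.32-fold, after 5-FU. That call after 5-FU rested on the full set, since the adjusted p was 0.0509 without Tespa1+/+ replicate 1, 0.0683 without Tespa1+/+ replicate 3, 0.0719 without Tespa1-/- replicate 1 and 0.0636 without Tespa1-/- replicate 3. An endothelial source of Vwf RNA was not tested, and the 11 endothelial markers summed to 69.2 to 73.4 CPM in treated Tespa1+/+ and 51.4 to 59.1 CPM in treated Tespa1-/- LSKs. Before treatment they summed to 59.0 to 63.1 and 62.4 to 64.5 CPM, so that their sum was higher after 5-FU in Tespa1+/+ and lower in Tespa1-/- LSKs. In Tespa1+/+ LSKs 1 of 10 tested was called higher (3.77% of all genes tested) and 0 lower. This was Tie1, with means of 23.4 CPM before and 34.9 CPM after. The others moved both ways, with Kdr at 3.87 CPM before and 7.42 after and Stab2 at 9.13 before and 4.31 after.

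The glycoprotein Ib-IX complex, the platelet receptor for Vwf, is represented by its subunits Gp1bb and Gp9, both of which were near the detection limit in untreated LSKs. Gp1bb had 1, 9 and 8 counts in untreated Tespa1+/+ and 21, 18 and 24 counts in untreated Tespa1-/- libraries. After 5-FU it had 68, 87 and 48 counts in Tespa1+/+ and 61, 114 and 76 counts in Tespa1-/- libraries. It was 3.33 ± 0.75 higher after 5-FU in Tespa1+/+ (log2, adjusted p = 0.0277) and 1.85 ± 0.36 higher in Tespa1-/- LSKs (adjusted p = 0.00794). With under 10 counts in each untreated Tespa1+/+ library, it entered that test only through its treated libraries. Leaving out 1 library ended the Tespa1+/+ call in 5 of 6 cases, with adjusted p of 0.0533 and 0.0551 without untreated replicate 2 or 3 and of 0.0875, 0.116 and 0.0632 without treated replicate 1, 2 or 3. Gp1bb overlaps Sept5 on the same strand of chromosome 16, and Sept5 had 243, 189 and 142 counts in treated Tespa1-/- libraries against 15, 60 and 2 in treated Tespa1+/+ libraries, so that the split of reads between the 2 genes is uncertain.

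Gp9 stood at 12, 0 and 34 counts in untreated Tespa1+/+ libraries, a spread as wide as its level. It had 19, 36 and 25 counts in untreated Tespa1-/-, 55, 76 and 88 in treated Tespa1+/+ and 143, 70 and 71 in treated Tespa1-/- libraries. Its treated libraries did not overlap the untreated ones in either genotype. The difference was 2.15 ± 0.97 (log2, adjusted p = 0.243) in Tespa1+/+, which missed the threshold and moved between 1.57 without untreated replicate 2 and 3.66 without untreated replicate 3, and 1.65 ± 0.38 (adjusted p = 0.0166) in Tespa1-/- LSKs. The latter call was lost without untreated Tespa1-/- replicate 1 (adjusted p = 0.0623) or 3 (0.0596) or treated replicate 1 (0.0588), and in the fit of all 12 libraries (0.174). Between genotypes neither subunit passed the test, with 0.33 ± 0.37 for Gp1bb (adjusted p = 0.633) and 0.35 ± 0.36 for Gp9 (adjusted p = 0.597) after 5-FU.

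Itga2b, the αIIb chain (CD41) of the fibrinogen receptor, was the member that passed all 4 tests. It was at 34.1, 28.4 and 30.4 CPM in untreated Tespa1+/+ and at 54.9, 54.9 and 53.4 CPM in untreated Tespa1-/- libraries. After 5-FU it reached 80.6, 88.0 and 83.3 CPM in Tespa1+/+ and 120.6, 124.6 and 126.2 CPM in Tespa1-/- libraries. The 4 groups therefore formed 4 levels without overlap. Tespa1-/- exceeded Tespa1+/+ LSKs by 0.81 ± 0.09 (log2, adjusted p = 0.00196, 1.76-fold) before and by 0.56 ± 0.07 (adjusted p = 6.1e-04, 1.47-fold) after treatment. The rise with 5-FU was 1.44 ± 0.10 in Tespa1+/+ (adjusted p = 5.1e-05) and 1.17 ± 0.06 in Tespa1-/- LSKs (adjusted p = 3.3e-06). Itga2b kept its call in all 4 comparisons whenever 1 library was left out.

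Itgb3, the β3 chain that pairs with αIIb and also with the integrin αv, followed a different course. Its level was 19.8, 14.0 and 14.8 CPM in untreated Tespa1+/+ and 16.2, 20.7 and 22.2 CPM in untreated Tespa1-/- libraries, which overlapped. After 5-FU it was 28, 25.9 and 18.3 CPM in Tespa1+/+, with 1 library below the highest untreated one, and 40.5, 50.3 and 43.4 CPM in Tespa1-/- libraries. The difference with 5-FU was 0.57 ± 0.21 (log2, adjusted p = 0.141) in Tespa1+/+ and 1.17 ± 0.14 (adjusted p = 5.4e-04) in Tespa1-/- LSKs, and the genotypes differed by 0.89 ± 0.17 after 5-FU (adjusted p = 0.00793, 1.85-fold). The test of the difference between the 2 responses gave 0.61 ± 0.26 with an adjusted p of 0.221. As a description, the counts of Itgb3 per count of Itga2b were 0.520 ± 0.0533 (SD, n = 3) in untreated Tespa1+/+ LSKs and 0.287 ± 0.0646 after 5-FU. In Tespa1-/- LSKs the ratio was 0.362 ± 0.0613 before and 0.361 ± 0.0370 after treatment.

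Pf4, platelet factor 4, is a chemokine of the alpha granules, and its level rose with 5-FU by the largest factor among members with over 50 counts in every library. It was at 2.68, 3.64 and 3.31 CPM in untreated Tespa1+/+ and 4.74, 6.12 and 5.59 CPM in untreated Tespa1-/- libraries. After 5-FU it was at 26.4, 28.7 and 19.4 CPM in Tespa1+/+ and 35.3, 36.1 and 35.9 CPM in Tespa1-/- libraries. No library of one group overlapped another group. The rise was 2.96 ± 0.22 (log2, adjusted p = 8.4e-05, 7.76-fold) in Tespa1+/+ and 2.69 ± 0.13 (adjusted p = 3.9e-06, 6.46-fold) in Tespa1-/- LSKs. Between genotypes the differences of 0.78 ± 0.23 (adjusted p = 0.111) before and 0.52 ± 0.15 (adjusted p = 0.0530) after 5-FU missed the threshold, although Tespa1-/- libraries were the higher in both. The value after 5-FU lay at the threshold, with an adjusted p of 0.0438 without Tespa1+/+ replicate 2 and of 0.0127 in DESeq2, and the untreated difference had an adjusted p of 0.026 in the fit of all 12 libraries.

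Ppbp, the neighbouring chemokine gene whose product gives CXCL7, was at 0 counts in all 3 untreated Tespa1+/+ libraries and at 0, 2 and 0 counts in the untreated Tespa1-/- libraries. After 5-FU it had 13, 0 and 0 counts in Tespa1+/+ and 20, 55 and 3 counts in Tespa1-/- libraries. Against a floor of 3 counts per library, the mean of treated Tespa1-/- LSKs was at least 7.58-fold higher than that of untreated ones, with 1 of its 3 libraries itself at the floor, and at least 3.29-fold higher without replicate 2. The difference between treated genotypes (adjusted p = 0.314) was not detectable at this depth.

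Selp, P-selectin of the granule membrane and of endothelium, was lower in treated Tespa1-/- LSKs, where the means of the other 9 members were higher. Its level was 8.96, 8.67 and 9.01 CPM in untreated Tespa1+/+ and 9.22, 9.67 and 7.77 CPM in untreated Tespa1-/- libraries, with a difference of 0.00 ± 0.16 (log2, adjusted p = 0.996). After 5-FU it was 34.6, 34.6 and 37.6 CPM in Tespa1+/+ and 22.9, 25 and 23.4 CPM in Tespa1-/- libraries. The rise was 2.0 ± 0.13 (adjusted p = 3.7e-05, 4.01-fold) in Tespa1+/+ and 1.41 ± 0.14 (adjusted p = 2e-04, 2.65-fold) in Tespa1-/- LSKs. Treated Tespa1-/- libraries were all below treated Tespa1+/+ libraries, by -0.59 ± 0.11 on the log2 scale (adjusted p = 0.00756, 1.5-fold lower). The test of the difference between the 2 responses gave -0.59 ± 0.17 with an unadjusted p of 0.00448 and an adjusted p of 0.0702, and DESeq2 gave an adjusted p of 0.0288. Counts of Selp per count of Vwf, given as a description, were 0.526 ± 0.0516 (SD, n = 3) in treated Tespa1+/+ and 0.267 ± 0.0390 in treated Tespa1-/- LSKs, and 0.673 ± 0.0573 and 0.553 ± 0.0512 in the untreated groups. The sum of the endothelial markers was also lower in treated Tespa1-/- than in treated Tespa1+/+ LSKs, at 51.4 to 59.1 against 69.2 to 73.4 CPM. Of 10 tested, 1 was called lower, a share near the 5.78% of all genes tested, and their part in the Selp values was not tested.

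Treml1 encodes TLT-1, a receptor that moves from alpha granules to the surface of activated platelets, and it was sparse. It had 19, 11 and 0 counts in untreated Tespa1+/+, 31, 21 and 15 in untreated Tespa1-/-, 66, 53 and 25 in treated Tespa1+/+ and 147, 87 and 43 in treated Tespa1-/- libraries. Treated libraries were above untreated ones in both genotypes, whereas the genotypes overlapped after 5-FU. The difference with 5-FU was 2.24 ± 0.96 (log2, adjusted p = 0.218, between 1.68 and 2.92 when 1 library was left out) in Tespa1+/+ and 1.84 ± 0.46 (adjusted p = 0.0217) in Tespa1-/- LSKs. The Tespa1-/- call was lost without untreated replicate 2 (adjusted p = 0.0776) or 3 (0.077) or treated replicate 1 (0.0778), and in the fit of all 12 libraries (0.11).

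Clu, which encodes clusterin, a secreted chaperone that is also carried in platelet granules and made by many other cell types, was the member without a higher mean after 5-FU in Tespa1+/+ LSKs. Its counts were 32, 21 and 64 in untreated Tespa1+/+, 23, 34 and 7 in untreated Tespa1-/-, 28, 52 and 33 in treated Tespa1+/+ and 97, 126 and 71 in treated Tespa1-/- libraries. The treated Tespa1-/- libraries stood above all other libraries in count and in CPM. The difference with 5-FU was -0.15 ± 0.58 (log2, adjusted p = 0.918) in Tespa1+/+ and 2.03 ± 0.50 (adjusted p = 0.0212) in Tespa1-/- LSKs, and the treated genotypes differed by 1.38 ± 0.37 (adjusted p = 0.0395, 2.60-fold). With 7 counts in untreated Tespa1-/- replicate 3, Clu passed the filter for the Tespa1-/- rise only through its treated libraries. The Tespa1-/- rise was not called without untreated replicate 1 (adjusted p = 0.0645) or treated replicate 2 (0.0657). The difference between treated genotypes was not called without Tespa1+/+ replicate 1 (0.0947) or 3 (0.103) or without Tespa1-/- replicate 1 (0.082), 2 (0.142) or 3 (0.0647), nor without a filter on low counts (0.0768) or in the fit of all 12 libraries (0.114).

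**Figure D2:**
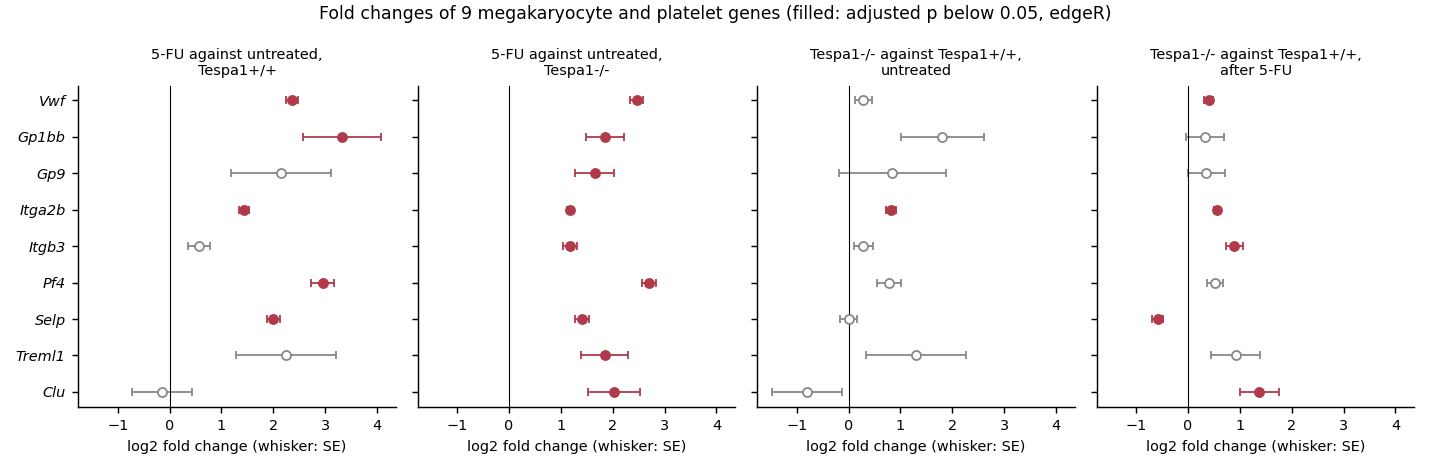
Log2 fold change of the 9 members other than Ppbp (horizontal axis, whiskers show SE) in the 4 comparisons, with filled points for an adjusted p below 0.05 in edgeR. In both 5-FU panels the points lie mostly right of 0, and in the panel of genotypes after 5-FU Selp is the 1 filled point left of 0, at -0.59.

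The response to 5-FU was then compared between genotypes in a single fit of all 12 libraries. None of the 10 genes was called for a different response, where 5.01% of 18696 genes were called. In edgeR 4 of the 10 had an unadjusted p below 0.05, namely Selp (-0.59), Itga2b (-0.25), Itgb3 (0.61) and Clu (2.19), with the log2 difference of the Tespa1-/- from the Tespa1+/+ response in brackets, and DESeq2 called 1 of the 10, Selp. The calls made in one genotype and not in the other, such as those of Itgb3, Gp9, Treml1 and Clu, are thus not shown to differ between genotypes. For a single gene, 3 libraries against 3 allow an exact two-sided permutation p of no less than 0.1, and this value was reached by every member whose groups did not overlap. Groups did not overlap for 7 of 9 tested members with 5-FU in Tespa1+/+ LSKs (28.5% of all genes tested), for 9 of 9 in Tespa1-/- LSKs (38.6%), for 3 of 9 between untreated genotypes (25.6%) and for 6 of 10 between treated genotypes (33%).

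Levels of different genes were set side by side per length, on the deposited FPKM scale. In untreated Tespa1+/+ LSKs the order was Itga2b (3.77 ± 0.365 FPKM, SD, n = 3), Pf4 (2.33 ± 0.351), Itgb3 (1.85 ± 0.371) and Selp (1.43 ± 0.0304), followed by Gp9, Vwf, Clu, Treml1, Gp1bb and Ppbp, all with means below 1. Pf4 and Itgb3, Selp and Gp9, Gp9 and Vwf, Clu and Treml1, and Treml1 and Gp1bb overlapped as neighbours in that order. After 5-FU in Tespa1+/+ LSKs, Pf4 stood first (18.6 ± 3.66 FPKM), ahead of Itga2b (10.6 ± 0.510), Selp (5.94 ± 0.303) and Vwf (3.50 ± 0.177), the last of which overlapped Gp9 (3.36 ± 0.873). In treated Tespa1-/- LSKs, Pf4 (26.3 ± 0.309 FPKM) and Itga2b (15.2 ± 0.388) again led without overlap. Below them Itgb3 (5.17 ± 0.573), Vwf (4.52 ± 0.453), Gp9 (4.21 ± 1.51) and Selp (3.87 ± 0.169) followed, each overlapping its neighbours among these 4. In untreated Tespa1-/- LSKs Itga2b (6.66 ± 0.129 FPKM) and Pf4 (4.01 ± 0.513) were again first and second. Selp thus took rank 3 in treated Tespa1+/+ and rank 6 in treated Tespa1-/- LSKs.

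Genes whose pattern over the 12 libraries was most like that of Vwf and of Pf4 were taken from 11200 genes with a mean of at least 5 CPM, by the root mean square difference of centred log2 CPM. For Vwf these were Vpreb1 (0.21), which encodes a part of the pre-B cell receptor's surrogate light chain, Emilin2 (0.27), an extracellular matrix glycoprotein, and Clca3a1 (0.28). Vpreb1 had group means of 3.08 and 3.27 CPM in untreated Tespa1+/+ and Tespa1-/- LSKs and of 15.4 and 23.1 CPM after 5-FU. For Pf4 the nearest gene was Vwf itself (0.35), before Ces2g (0.40) and Vpreb1 (0.42).

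Wider lists of 73 genes in 5 roles were then examined, of which 66 were tested for 5-FU in Tespa1+/+ LSKs. There 18 rose and 1 fell (3.77% and 4.18% of all genes tested), with a median of 0.14 on the log2 scale against 0.01 over all genes tested, while the median of the 9 tested members was 2.15. Among 10 transcription factors of megakaryocytes 5 rose, from Tal1 (0.75 ± 0.09, adjusted p = 9.0e-04), a partner of GATA factors, to Gata1 (1.73 ± 0.29, adjusted p = 0.00733), the lineage factor shared with red cells. Among 16 tested surface receptors 5 rose, from the laminin receptor chain Itga6 (0.97 ± 0.12, adjusted p = 0.00155) to the tetraspanin Cd9 (1.40 ± 0.16, adjusted p = 8.8e-04), with a list median of 1.07. Granule genes rose for 3 of 14, from multimerin Mmrn1 (0.91 ± 0.14, adjusted p = 0.00354) to Rab27b (1.67 ± 0.31, adjusted p = 0.0112), a small GTPase of granule transport. Cytoskeletal genes rose for 2 of 11, namely the kindlin Fermt3 (0.47 ± 0.06, adjusted p = 0.00240), which activates integrins, and the tubulin Tuba8 (1.47 ± 0.21, adjusted p = 0.00271). Of 15 signalling genes 3 rose, Cavin2 by the most (1.49 ± 0.25, adjusted p = 0.00723), and the phospholipase Plcg2 fell (-0.26 ± 0.07, adjusted p = 0.0446). In Tespa1+/+ LSKs the gain after 5-FU was thus counted most often in the transcription factors and receptors, and no difference between these lists was tested.

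In Tespa1-/- LSKs 31 of 66 tested genes of these lists rose after 5-FU and 4 fell, where 10.7% and 8.64% of all genes tested did. The transcription factors counted 5 higher and 2 lower of 10, the receptors 7 higher of 15, the granule genes 6 higher and 1 lower of 14, the cytoskeletal genes 10 higher of 12 (1 of them, Tubb1, through its treated libraries only) and the signalling genes 3 higher and 1 lower of 15. Between untreated genotypes 2 of 65 were higher and 6 lower in Tespa1-/- LSKs, where 1.64% and 3.59% of all genes tested were, with 1 transcription factor and 1 granule gene higher, and 3 granule, 1 cytoskeletal and 2 signalling genes lower.

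Between treated genotypes 16 of 69 genes were higher and 7 lower in Tespa1-/- LSKs (7.34% and 5.78% of all genes tested), with a median of 0.02. Transcription factors split, with 3 higher and 3 lower of 10. Gata1 was the highest of them (0.97 ± 0.19, adjusted p = 0.0103), at 36.9, 42.0 and 33.4 CPM in Tespa1-/- against 25.1, 17.1 and 15.2 CPM in Tespa1+/+ libraries. Meis1, a homeobox factor of stem cells and megakaryocytes, was the lowest (-0.59 ± 0.07, adjusted p = 6.3e-04). The groups did not overlap for Gata1.

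Surface receptors counted 1 higher and 2 lower of 18 between treated genotypes. Pear1, a platelet contact receptor, was lower (-0.54 ± 0.09, adjusted p = 0.00442). The 1 receptor counted as higher was Cd226, an adhesion molecule also of lymphocytes, named here after its values were seen, with 11, 30 and 32 counts in Tespa1-/- and 0 counts in every Tespa1+/+ library. It entered the test only through the group where it was high, so that its call, also in the 16 of 69, is no support.

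Granule genes counted 3 higher and 1 lower of 14. F13a1, the A chain of coagulation factor XIII, which monocytes also make, was higher (1.17 ± 0.06, adjusted p = 6.0e-06), at 206.4, 201.1 and 214.4 CPM in Tespa1-/- against 93.5, 95.1 and 86.2 CPM in Tespa1+/+ libraries, and Angpt1, the angiopoietin ligand of TIE2, was lower (-0.90 ± 0.06, adjusted p = 2.7e-05). Cytoskeletal genes were higher for 9 of 12 and lower for 0, with a median of 0.45, from talin Tln1 (0.21 ± 0.03, adjusted p = 0.00172) to the parvin Parvb (1.26 ± 0.24, adjusted p = 0.00919), both adaptors of integrins to actin. Of the 15 signalling genes, thromboxane synthase Tbxas1 was lower (-0.54 ± 0.10, adjusted p = 0.00686) and none was higher in edgeR, with 5 of the 15 at an unadjusted p below 0.05. In the fit of the 2 responses, 6 of the 12 cytoskeletal genes had a larger 5-FU response in Tespa1-/- LSKs by the adjusted test, where 5.01% of all genes tested were called in either direction.

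**Figure D3:**
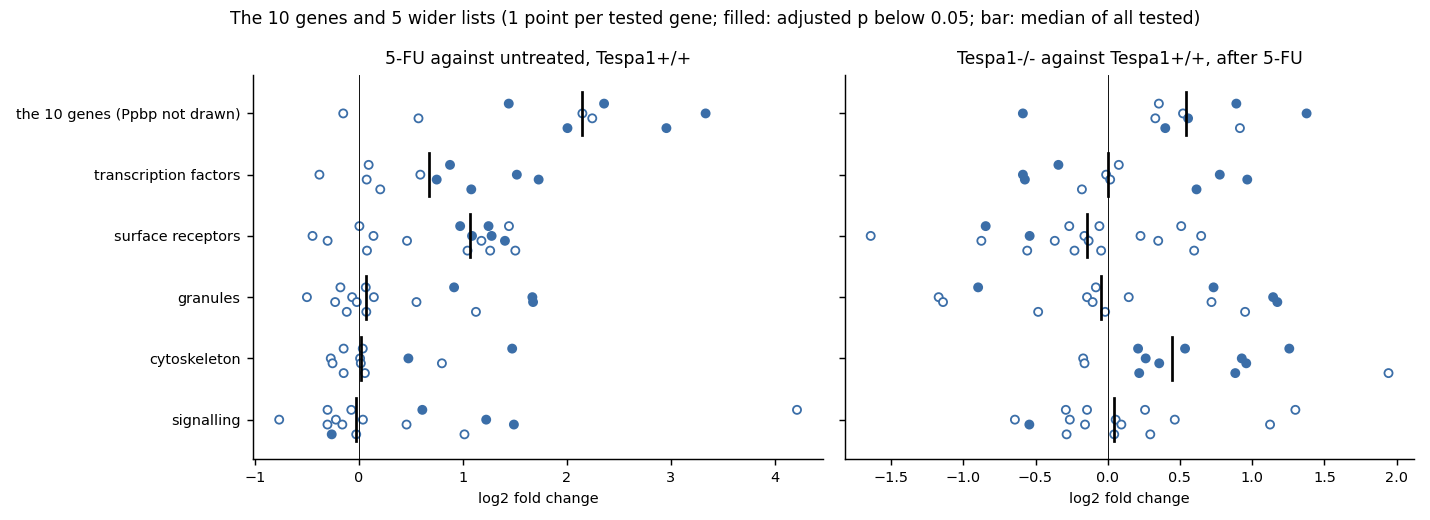
Log2 fold change (horizontal axis) of the tested members and of 5 lists by role, for 5-FU against untreated Tespa1+/+ LSKs on the left and for treated Tespa1-/- against treated Tespa1+/+ LSKs on the right. Filled points have an adjusted p below 0.05, bars are medians of the tested genes, and Ppbp and genes with no count in any library of a group are not drawn. The medians of the transcription factors and receptors on the left are 0.67 and 1.07, and on the right the cytoskeletal list has its median at 0.45.

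Markers of other blood cells moved with the genotype after 5-FU. Of 10 erythroid markers tested, 10 were called higher in treated Tespa1-/- than in treated Tespa1+/+ LSKs (7.34% of all genes tested), with a summed level of 808.8 to 860.4 against 257.0 to 279.3 CPM. Of 9 markers of mature neutrophils 9 were called higher, at a sum of 1021 to 1026 against 3.66 to 8.42 CPM. Among these calls 1 erythroid gene (Slc4a1) and 3 neutrophil genes (Camp, Cd177 and Retnlg) averaged under 10 counts in treated Tespa1+/+ LSKs and entered the test only through the other group, which leaves 9 and 6 as the calls of genes measured in both groups. Of the neutrophil markers, 3 were at or below 3 counts in every treated Tespa1+/+ library and 0 in treated Tespa1-/- LSKs. The LSK and stem cell markers were lower for 6 of 10 (5.78% of all genes tested) and higher for 0, at a sum of 1046 to 1123 against 1594 to 1624 CPM.

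The 10 members together summed to 330.9 to 335.0 CPM in treated Tespa1-/- and to 231.0 to 258.9 CPM in treated Tespa1+/+ LSKs. Before treatment they summed to 105.8 to 112.4 CPM in Tespa1-/- and to 68.3 to 81.5 CPM in Tespa1+/+ LSKs. In the same untreated Tespa1-/- against Tespa1+/+ libraries, where 1.64% of all genes tested were higher and 3.59% lower, erythroid markers summed to 177.1 to 186.0 against 147.7 to 171.5 CPM (2 of 9 higher), monocyte and macrophage markers to 136.3 to 139.6 against 108.0 to 117.4 CPM (2 higher and 1 lower of 8) and neutrophil markers to 4.61 to 5.85 against 0.770 to 1.36 CPM (0 of 4 called). LSK and stem cell markers summed to 1618 to 1630 against 1869 to 1997 CPM (3 of 10 lower) and lymphocyte markers to 41.4 to 48.1 against 64.1 to 70.4 CPM (3 of 6 lower). With 5-FU in Tespa1+/+ LSKs, 5 of 9 erythroid markers rose (3.77% of all genes tested), at sums of 147.7 to 171.5 CPM before and 257.0 to 279.3 CPM after, while 1 of 5 tested neutrophil markers (Lcn2) was called higher, through its treated libraries only. Lymphocyte markers rose for 5 of 6 tested, at sums of 64.1 to 70.4 CPM before and 250.3 to 258.5 CPM after, and the LSK and stem cell markers counted 2 higher and 2 lower of 10, at 1869 to 1997 before and 1594 to 1624 CPM after. Monocyte and macrophage markers were higher for 1 of 9 between treated genotypes, a share near the 7.34% of all genes tested, at 142.4 to 152.8 against 89.5 to 112.8 CPM, lymphocyte markers were higher for 2 of 10, 1 of them (Cd3e) only through its treated Tespa1-/- libraries, at 268.3 to 301.8 against 250.3 to 258.5 CPM, and stromal markers for 0 of 4, at 29.0 to 44.4 against 32.7 to 44.4 CPM. With 5-FU in Tespa1-/- LSKs, where 10.7% of all genes tested rose and 8.64% fell, 10 of 10 erythroid, 9 of 9 neutrophil, 6 of 10 lymphocyte and 5 of 9 monocyte and macrophage markers were called higher. Of these calls 1, 4, 1 and 2 were of genes that averaged under 10 counts in untreated Tespa1-/- LSKs and entered the test only through the treated group. In the same comparison 1 lymphocyte, 1 monocyte and macrophage and 2 of 9 endothelial markers fell, and the LSK and stem cell markers counted 3 higher and 3 lower of 10. The part of these cells in the differences of the 10 genes was not tested.

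**Figure D4:**
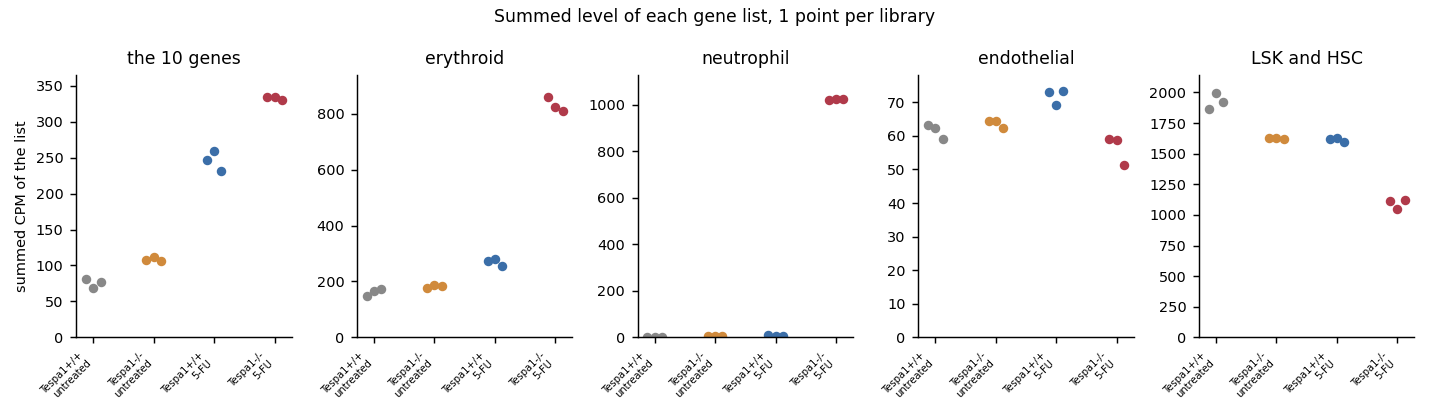
Summed CPM (vertical axis, linear, a scale of its own per panel) of the 10 members and of 4 marker lists in the 12 libraries, 1 point per library. The members step up with 5-FU and again with genotype, whereas the neutrophil markers reach 1021 to 1026 CPM in treated Tespa1-/- libraries and stay at or below 8.42 CPM in all others.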

How the data were processed

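RNA of LSKs was sequenced as poly-A selected, stranded, paired-end libraries. The authors deposited raw read counts per gene and FPKM (fragments scaled by gene length and library total) per library on GRCm38. The submitters' processing notes name CASAVA 1.8, HISAT2, StringTie and edgeR, while how reads were counted, with or without strand, is not given in the sources used here. Of 53465 gene IDs 53274 were found in GENCODE M21. The members and lists were chosen with earlier results of these data known.

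From the counts, edgeR 4.0.16 (R 4.3.3) was run on the 6 libraries compared, with filterByExpr (minimum count 10), TMM scaling, the quasi-likelihood test and Benjamini-Hochberg adjustment over all genes tested. The interaction used 12 libraries. The study's own rule, unadjusted p below 0.05 with a fold change above 1.5, was an alternative, as were DESeq2 1.42.0, other scalings and filters, a fit of all 12 libraries, a block for the replicate number and leaving out each library. CPM used TMM factors. Replicates differed by more than counting noise (chi-square per degree of freedom 10.5 to 20.4), so that all 3 were kept.

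The text names all 10 members and, from each wider list, the called genes with the largest and smallest log2 fold change and at least 1 CPM, for 5-FU in Tespa1+/+ LSKs and for genotype after 5-FU. A gene that this rule also names is not reported here. Likeness was taken on log2 of CPM with 0.1 added. Promoters were those of RefSeq.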

Additional observations from a re-analysis of the deposited data

How the results depend on the processing

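Depth limits Gp1bb, Gp9, Treml1, Clu and Ppbp, which had 0 to 64 counts in untreated libraries. Of the 10 members, 5 were called for 5-FU in Tespa1+/+ LSKs, with 4 under a minimum of 10 counts in every library, 4 to 5 when 1 library was left out and 6 by the study's rule, which added Treml1. For 5-FU in Tespa1-/- LSKs 9 were called, with 7 in the fit of all 12 libraries, where Gp9 and Treml1 were not called, and 7 to 10 when 1 was left out. The 10 include Ppbp, called without treated replicate 3, which entered the test through its treated libraries only. Between untreated genotypes 1 was called, with 2 in the fit of all 12 libraries and 2 by the study's rule. Between treated genotypes 5 were called, with 6 in DESeq2, 3 to 6 when 1 library was left out, 3 with a fold change above 1.5 added and 3 by the study's rule, since Itga2b and Vwf changed by under 1.5-fold. For the difference of the 2 responses 0 were called, with 1 in DESeq2, 3 by the study's rule and 0 when 1 library was left out. The direction of Selp between untreated genotypes reversed without the count filter (-0.019), with a replicate block (-0.001814) and when 1 library was left out (-0.061 to 0.087). Clu with 5-FU in Tespa1+/+ LSKs reversed without untreated replicate 3 or treated replicate 1 (-0.435 to 0.516 over the libraries left out). The difference of responses reversed for Gp9 without untreated Tespa1+/+ replicate 2 (-1.993 to 0.083 over the libraries left out) and for Treml1 without untreated Tespa1+/+ replicate 3 (-1.061 to 0.18).

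Equal replicate numbers did not pair the samples, since deviations of same-numbered libraries correlated at -0.04 to 0.03. With a replicate block 4, 8, 1 and 4 members were called for 5-FU in Tespa1+/+, 5-FU in Tespa1-/-, untreated genotypes and treated genotypes, and the calls lost were those of Gp1bb (adjusted p = 0.0612), Gp9 (0.0521) and, between treated genotypes, Clu (0.0563). Over all genes, 1352 were called for 5-FU in Tespa1+/+ (753 to 2113 over the alternatives), 3336 for 5-FU in Tespa1-/- (1735 to 3871), 892 between untreated (338 to 1427) and 2261 between treated genotypes (1204 to 2985), and 936 for the difference of responses (573 to 1941). The cause of these changes was not tested.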
